A study of Mus musculus with 6 samples.

Results

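The T cell receptor γ chain genes of mouse γδ thymocytes were followed here through 7 genes: the V segments Tcrg-V1, Trgv2 and Tcrg-V3 and the constant regions Tcrg-C1, Tcrg-C2, Tcrg-C3 and Tcrg-C4. They were taken by name from gene count tables of 41195 genes, and all 7 passed the filter on low counts that left 13185 tested genes. The study asked what loss of the transcription factor NFATc1 does to γδ thymocytes. Poly(A) RNA was sequenced from 3 libraries labelled Rag1Cre-Nfatc1fl/fl (KO) and 3 libraries labelled Nfatc1fl/fl (WT), called Nfatc1fl/fl control below. Both groups carry loxP-flanked Nfatc1 alleles, and only the Rag1Cre-Nfatc1fl/fl mice also carry Cre, driven from the Rag1 locus, which deletes exon 3 of Nfatc1 in cells that have switched on Rag1. The mice were 4 to 6 weeks old on a C57/B6 background. The cells were enriched on magnetic beads with a TCRγ/δ+ isolation kit. The labels do not say whether each library came from its own animal, so the p-values measure the spread between these libraries, which may be technical.

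A γδ T cell receptor is a γ chain paired with a δ chain, held at the surface by the CD3 proteins. In the mouse the γ locus lies on chromosome 13 as a row of clusters, each with its own J segment and constant region, and a V segment joins the J segment of its own cluster. Tcrg-V1 (Vγ1 or Vγ1.1, depending on the nomenclature) therefore goes with Tcrg-C4, Trgv2 with Tcrg-C2 and Tcrg-V3 with Tcrg-C3. Tcrg-C1 serves the cluster of Tcrg-V7, Tcrg-V4, Tcrg-V6 and Tcrg-V5. Whether the cluster of Tcrg-V3 and Tcrg-C3 gives a working chain was not tested. Cells with Vγ1.1 and Vδ6.3 chains include the γδ NKT cells, which make interleukin 4 and interferon γ.

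In the GRCm38 annotation of the tables, Tcrg-C1 (ENSMUSG00000076749) spans bases 19214103 to 19217024 of chromosome 13 on the plus strand. Tcrg-V3 (ENSMUSG00000076750) spans 19242845 to 19243301 and Tcrg-C3 (ENSMUSG00000091682) 19260884 to 19263528, both on the plus strand. The inverted cluster follows, with Tcrg-C2 (ENSMUSG00000076752) at 19304649 to 19307551 and Trgv2 (ENSMUSG00000076754) at 19336573 to 19337167 on the minus strand. Tcrg-V1 (ENSMUSG00000076755) at 19339989 to 19340454 and Tcrg-C4 (ENSMUSG00000076757) at 19344558 to 19352756 on the plus strand close the row. Tcrg-C3 is the only one of the 7 with annotated exons in the tables, so the reads of the other 6 were all booked as intron reads, and levels here are gene reads.

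The 3 V segments are near copies, which bears on how short reads can be assigned to them. Tcrg-V1 matched Trgv2 at 95.7% of aligned bases and Tcrg-V3 at 95.6%, and Tcrg-V3 matched Trgv2 at 94.5%. The coding sequences from GENCODE vM1 (NCBIM37) are printed 5′ to 3′ over their first 300 bases, with capitals at bases that differ from, or have no partner in, at least 1 of the other 2 sequences.
Tcrg-V1: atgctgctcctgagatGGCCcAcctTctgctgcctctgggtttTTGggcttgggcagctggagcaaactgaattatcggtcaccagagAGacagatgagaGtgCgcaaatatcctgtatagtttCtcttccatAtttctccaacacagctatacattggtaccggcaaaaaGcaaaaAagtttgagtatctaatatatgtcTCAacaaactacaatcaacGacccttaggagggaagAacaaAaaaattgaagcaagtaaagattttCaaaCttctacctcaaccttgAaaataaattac
Trgv2: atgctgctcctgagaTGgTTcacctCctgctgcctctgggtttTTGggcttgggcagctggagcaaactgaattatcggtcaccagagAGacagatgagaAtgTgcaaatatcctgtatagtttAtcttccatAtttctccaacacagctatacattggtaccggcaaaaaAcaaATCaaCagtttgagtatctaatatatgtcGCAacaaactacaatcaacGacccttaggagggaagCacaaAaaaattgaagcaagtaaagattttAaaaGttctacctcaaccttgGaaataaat
Tcrg-V3: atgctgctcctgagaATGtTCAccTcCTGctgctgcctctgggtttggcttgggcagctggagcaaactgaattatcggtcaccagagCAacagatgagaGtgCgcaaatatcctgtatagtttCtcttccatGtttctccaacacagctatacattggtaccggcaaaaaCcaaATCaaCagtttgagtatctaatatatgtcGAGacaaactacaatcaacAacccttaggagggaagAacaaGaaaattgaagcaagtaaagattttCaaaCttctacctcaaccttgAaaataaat
The capitals number 26 in Tcrg-V1, 28 in Trgv2 and 30 in Tcrg-V3. Of the 299 stretches of 49 bases in Tcrg-V1, the length of a trimmed read, 56 occur letter for letter in Tcrg-V3 and 33 in Trgv2.

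The constant regions fall into 3 near copies and 1 more distant gene. Tcrg-C1 matched Tcrg-C2 at 97.4% and Tcrg-C3 at 96.9% of aligned coding bases, against 77.4% for Tcrg-C4, which shares no stretch of 49 bases with any of the other 3. The part that encodes the connecting peptide between the immunoglobulin domain and the membrane sets them apart. It is printed below from GENCODE vM1 with its exon or exons in capitals, between the last 40 bases before and the first 40 after it in the coding sequence.
Tcrg-C1: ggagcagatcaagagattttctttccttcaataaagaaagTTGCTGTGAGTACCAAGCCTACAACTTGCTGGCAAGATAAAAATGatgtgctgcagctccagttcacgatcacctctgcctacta
Tcrg-C2: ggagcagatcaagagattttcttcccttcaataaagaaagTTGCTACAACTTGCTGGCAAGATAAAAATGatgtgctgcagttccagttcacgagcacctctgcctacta
Tcrg-C3: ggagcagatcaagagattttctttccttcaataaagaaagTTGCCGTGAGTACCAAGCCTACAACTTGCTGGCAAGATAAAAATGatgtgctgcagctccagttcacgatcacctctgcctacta
Tcrg-C4: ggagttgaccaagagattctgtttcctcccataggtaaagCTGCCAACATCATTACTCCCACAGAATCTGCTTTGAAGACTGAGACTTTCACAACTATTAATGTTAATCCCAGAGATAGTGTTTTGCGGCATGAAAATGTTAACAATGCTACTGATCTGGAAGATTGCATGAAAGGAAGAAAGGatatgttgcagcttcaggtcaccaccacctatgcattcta
The capitals run over 45 bases in Tcrg-C1 and Tcrg-C3, which differ at 1 of them, over 30 bases in Tcrg-C2 and over 144 bases, from 3 exons, in Tcrg-C4.

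The libraries held 20734771 to 22638531 gene reads each. The γδ marker list (Trdc, Cd3e, Cd3d, Cd3g and Sox13) summed to 2064 to 2092 CPM (gene reads per 1000000 scaled reads) in Rag1Cre-Nfatc1fl/fl libraries and to 2100 to 2256 CPM in Nfatc1fl/fl control libraries, and 2 of its 5 genes, Trdc and Sox13, were called lower. Summed markers of myeloid cells, all 6 tested and none called, lay at 40.9 to 207 CPM in Rag1Cre-Nfatc1fl/fl libraries and at 15.8 to 71.2 CPM in control libraries. The highest of these sums was that of Rag1Cre-Nfatc1fl/fl library 3, which also stood apart from the other 2 of its group. Cd79b on the B cell list and Epcam on the epithelial list were called lower, no marker on the lists of other cell types was called higher, and none was at 0 in all libraries. The part of these cells in the γ locus values was not tested. Nfatc1 itself had 7987, 9603 and 5872 reads in Rag1Cre-Nfatc1fl/fl libraries, against 4581, 4736 and 4612 in control libraries. A whole-gene count cannot show the loss of 1 exon, so it checks neither the deletion nor the labels.

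Opposite movements were seen within the γ locus. Reads of the Tcrg-V1 and Tcrg-C4 cluster took a larger share of the locus in Rag1Cre-Nfatc1fl/fl libraries, and reads of Tcrg-C1, Tcrg-C2, Tcrg-C3 and Trgv2 lay below those of the control libraries. Called here means an adjusted p under 0.01 and a log2 fold change beyond 0.5 by edgeR's quasi-likelihood F-test, adjusted after Benjamini and Hochberg across every gene tested, the thresholds of the study. By that rule 2 of the 7 genes, Tcrg-C1 and Tcrg-C3, were called, both lower, against 9.98% of all tested genes in either direction and 3.51% in the lower direction. Nearly all Tcrg-C3 reads crossed junctions close in sequence to Tcrg-C1 (below), and whether the 2 calls are separate was not tested. None of the 7 was called higher, against 6.47% of all tested genes. The groups did not overlap in CPM for 5 of the 7 genes, against 46.7% of all genes, and 4 of these 5 were lower, against 23.4% of all genes. At an adjusted p under 0.05 without a fold threshold, the same 5 genes passed, against 23.3% of all genes, 4 of them lower, against 10.1% of all genes. That count fell to 2, Tcrg-C1 and Tcrg-C3, without Rag1Cre-Nfatc1fl/fl library 1 or any 1 control library, was 3 without Rag1Cre-Nfatc1fl/fl library 2 and was 6 without Rag1Cre-Nfatc1fl/fl library 3. The share of all genes at this threshold is not given for these fits. By the rule of the call, the number over all genes moved as well, from 1316 with all libraries. It was 1002, 629 and 1796 without Rag1Cre-Nfatc1fl/fl library 1, 2 and 3, and 488, 541 and 488 without control library 1, 2 and 3. The median log2 fold change of the 7 genes was -0.33, against -0.01 over all tested genes, and scaling by library size alone moved the median of all genes to -0.11.

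**Figure D1:**
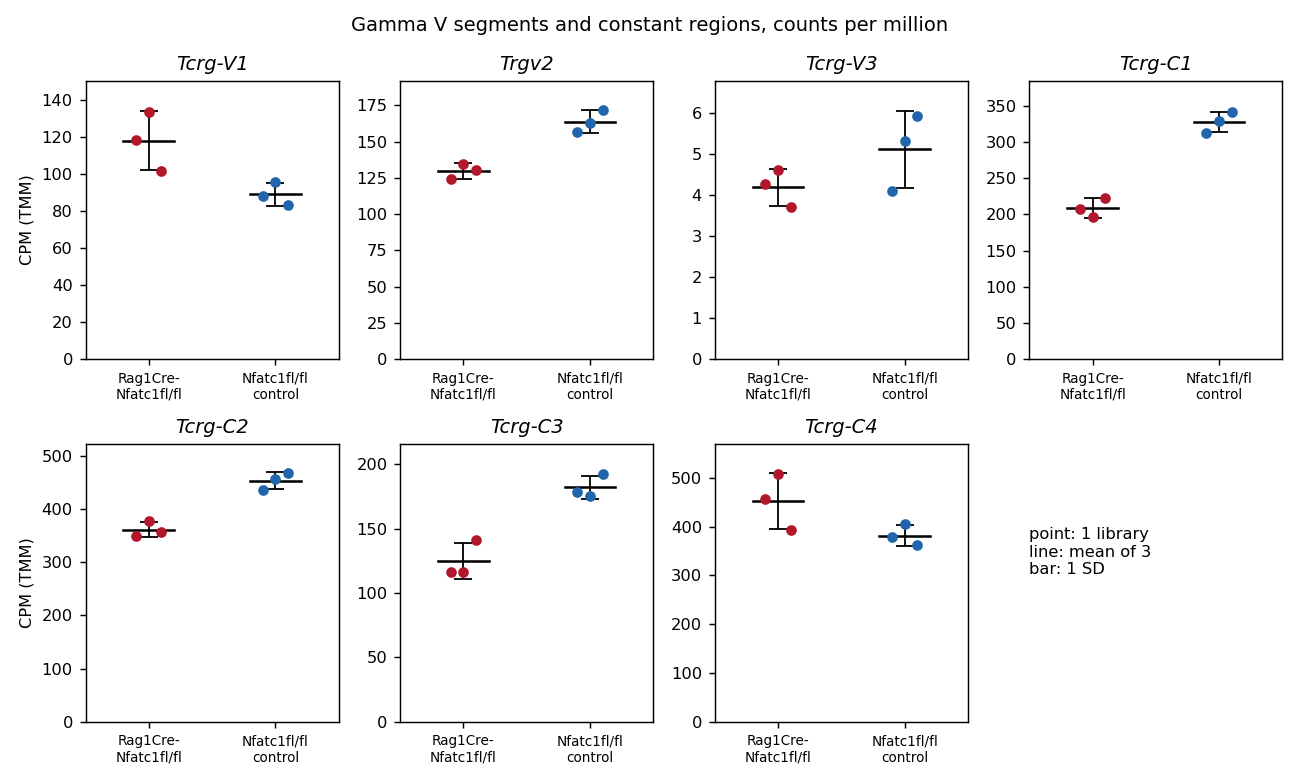
CPM with TMM scaling (y axes from 0, one scale per gene) of the 7 γ genes in 3 Rag1Cre-Nfatc1fl/fl libraries (left, red) and 3 Nfatc1fl/fl control libraries (right, blue), with the mean and 1 SD. Tcrg-V1 is higher in each Rag1Cre-Nfatc1fl/fl library than in any control library, Trgv2, Tcrg-C1, Tcrg-C2 and Tcrg-C3 are lower, and Tcrg-V3 and Tcrg-C4 overlap.

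Tcrg-V1, the V segment of the Tcrg-C4 cluster, had 119, 134 and 102 CPM in Rag1Cre-Nfatc1fl/fl libraries 1 to 3, against 88.0, 95.8 and 83.5 CPM in control libraries 1 to 3. The groups did not overlap, and the lowest Rag1Cre-Nfatc1fl/fl value was that of library 3. The log2 fold change was 0.41 ± 0.12 (SE, n = 3 each), with an edgeR adjusted p of 0.0399, which misses the call. Without Rag1Cre-Nfatc1fl/fl library 3 it was 0.51 with an edgeR adjusted p of 0.00115, which passes it. Each of the other 5 fits without 1 library gave 0.31 to 0.47 with an edgeR adjusted p of 0.0802 to 0.148, and the lowest fold change was that without Rag1Cre-Nfatc1fl/fl library 2.

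Tcrg-C4, the constant region joined to Tcrg-V1, had 9977, 11177 and 7466 gene reads in Rag1Cre-Nfatc1fl/fl libraries, against 8795, 9220 and 8139 in control libraries. In CPM this was 453 ± 57.5 in Rag1Cre-Nfatc1fl/fl libraries and 382 ± 21.8 in control libraries (SD, n = 3 each), and library 3 of the Rag1Cre-Nfatc1fl/fl group lay within the control range. The log2 fold change of 0.25 ± 0.11 (SE; 95% interval -0.01 to 0.51) did not pass, with an edgeR adjusted p of 0.146. It was 0.16 without Rag1Cre-Nfatc1fl/fl library 2 (edgeR adjusted p = 0.367) and 0.35 without library 3 (edgeR adjusted p = 0.00461, short of the fold of the call). It pointed in the direction of Tcrg-V1.

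Tcrg-C1, the constant region of the Tcrg-V7, Tcrg-V4, Tcrg-V6 and Tcrg-V5 cluster, showed the widest gap. It had 4530, 4307 and 4231 gene reads in Rag1Cre-Nfatc1fl/fl libraries, against 7272, 7500 and 7674 in control libraries. In CPM this was 209 ± 13.6 against 328 ± 14.4 (SD, n = 3 each). The log2 fold change was -0.65 ± 0.087 (SE), with an edgeR adjusted p of 0.00183. Without Rag1Cre-Nfatc1fl/fl library 2 the edgeR adjusted p was 0.0111, and without control library 1, 2 or 3 it was 0.0104, 0.0146 or 0.0159, so the call was lost in each of these 4 fits while the log2 fold change stayed between -0.69 and -0.61.

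Tcrg-C3 had 2545, 2563 and 2679 gene reads in Rag1Cre-Nfatc1fl/fl libraries, against 4160, 3997 and 4325 in control libraries, with no overlap. The log2 fold change was -0.55 ± 0.10 (SE, n = 3 each), with an edgeR adjusted p of 0.00794. The call was lost without Rag1Cre-Nfatc1fl/fl library 1 (adjusted p = 0.0278 in edgeR) or 2 (0.0346), and without control library 1 (0.0351), 2 (0.0334) or 3 (0.0447), with log2 fold changes from -0.63 to -0.50 over all 6 such fits.

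The Tcrg-C3 reads were nearly all junction reads. Reads across an exon junction made up 98.1 ± 0.460% of them in Rag1Cre-Nfatc1fl/fl libraries and 96.7 ± 0.882% in control libraries (SD, n = 3 each). Over 136 tested genes with 3 annotated exons and at least 1000 exon reads, the median was 13.0%, and Tcrg-C3 was the highest. Of the 471 places where a 49-base read can start in the Tcrg-C3 coding sequence, 93 (19.7%) cross a junction, and 44 of these 93 stretches occur letter for letter in the coding sequence of Tcrg-C1, printed around the connecting peptide above. With up to 2 mismatches all 93 were found in Tcrg-C1 and 33 in Tcrg-C2, where none occurred letter for letter. The reads without a junction numbered 43, 62 and 42 in Rag1Cre-Nfatc1fl/fl libraries, against 179, 112 and 119 in control libraries. Tcrg-C3 had 59.7 ± 3.57 reads per 100 Tcrg-C1 reads in Rag1Cre-Nfatc1fl/fl libraries, against 55.6 ± 2.06 in control libraries (SD, n = 3 each), and the groups overlapped. How many of the Tcrg-C3 reads came from transcripts of Tcrg-C1 or Tcrg-C2 was not tested.

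Trgv2 and Tcrg-C2, the V segment and constant region of the inverted cluster, both lay below the control libraries, with log2 fold changes of near equal size. Trgv2 had 124, 135 and 130 CPM in Rag1Cre-Nfatc1fl/fl libraries, against 157, 163 and 172 CPM in control libraries, a log2 fold change of -0.34 ± 0.082 (SE) with an edgeR adjusted p of 0.0218. Tcrg-C2 averaged 361 ± 14.4 CPM in Rag1Cre-Nfatc1fl/fl libraries and 453 ± 16.2 CPM in control libraries (SD, n = 3 each). Its log2 fold change was -0.33 ± 0.081 (SE), with an edgeR adjusted p of 0.0233. Neither gene reached the fold of the call, and neither overlapped between groups.

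Tcrg-V3 was the rarest of the 7, at 93, 101 and 70 gene reads in Rag1Cre-Nfatc1fl/fl libraries, against 95, 121 and 133 in control libraries. The groups overlapped, and the log2 fold change was -0.28 ± 0.20 (SE, n = 3 each; edgeR adjusted p = 0.325), with a range from -0.42 without control library 1 to -0.16 without control library 3. The reads split by mapping gave another picture. Unique gene reads numbered 38, 26 and 27 in Rag1Cre-Nfatc1fl/fl libraries, against 61, 86 and 88 in control libraries, and the fit on unique reads gave a log2 fold change of -1.24 with an edgeR adjusted p of 0.0108, just short of the call. The other reads ran the opposite way, at 55, 75 and 43 in Rag1Cre-Nfatc1fl/fl libraries, against 34, 35 and 45 in control libraries. Scaled for depth, these were 2.27 to 3.41 CPM in Rag1Cre-Nfatc1fl/fl libraries and 1.46 to 2.00 CPM in control libraries, without overlap. The remaining 6 genes had at least 98.8% unique reads in every library. Yet fewer of their 49-base stretches occurred in no other γ V or constant coding sequence compared. The share was 72.6% for Tcrg-V1, 57.9% for Tcrg-C1 and 56.7% for Tcrg-C3, up to 100% for Tcrg-C4. How reads of shared stretches were booked was not given. The unique share thus does not show that the counts of these genes are free of misassigned reads. The part that near copies such as Tcrg-V1 have in the reads of Tcrg-V3 that were not unique was not tested.

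**Figure D2:**
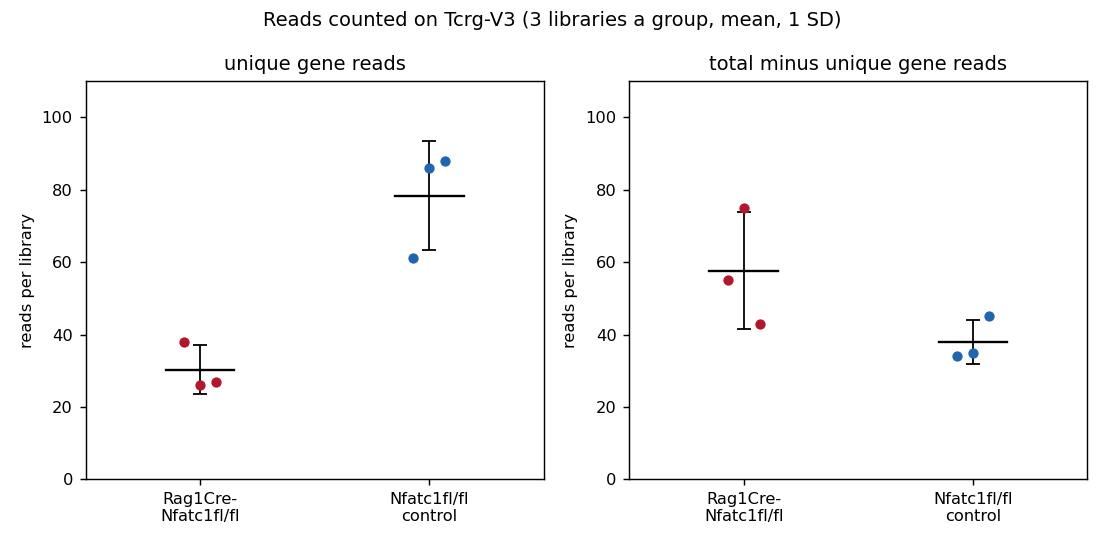
Reads counted on Tcrg-V3 per library (y axes in reads, from 0), split into unique gene reads (left panel) and the rest (right panel), for 3 Rag1Cre-Nfatc1fl/fl libraries (red) and 3 Nfatc1fl/fl control libraries (blue), with the mean and 1 SD. Unique reads lie at 26 to 38 against 61 to 88 without overlap, while the rest lie at 43 to 75 against 34 to 45 and overlap as raw reads, though not in CPM.

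**Figure D3:**
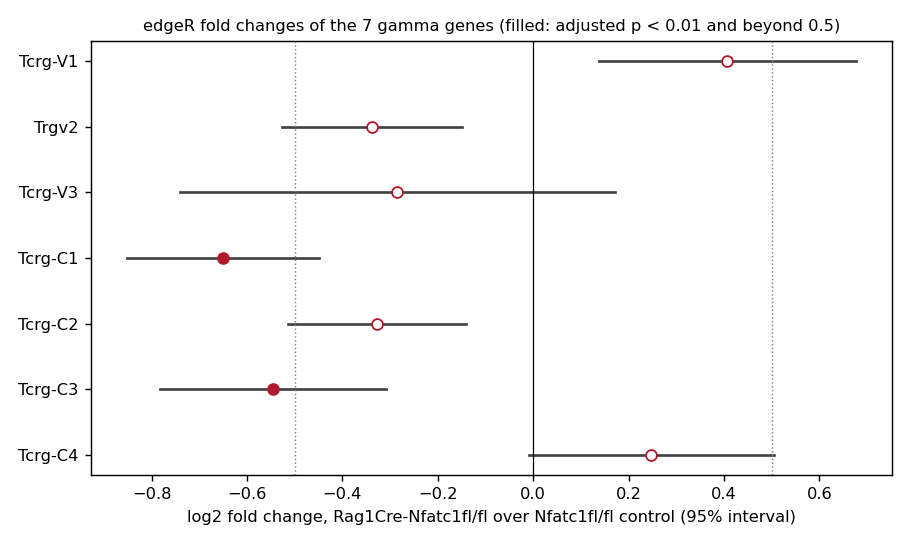
Log2 fold changes of the 7 γ genes, Rag1Cre-Nfatc1fl/fl over Nfatc1fl/fl control (x axis), from edgeR with 95% intervals over 3 libraries a group. Filled points mark the called genes Tcrg-C1 (-0.65) and Tcrg-C3 (-0.55), and dotted lines mark 0.5 in either direction. The intervals of Tcrg-V3 and Tcrg-C4 include 0.

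Levels can be compared between genes only per length, here as CPM per kb of coding sequence in GENCODE vM1. In Rag1Cre-Nfatc1fl/fl libraries the order was Tcrg-C2 (718 ± 28.6), Tcrg-C4 (704 ± 89.3), Tcrg-C1 (403 ± 26.3), Trgv2 (371 ± 15.5), Tcrg-V1 (340 ± 46.1), Tcrg-C3 (241 ± 27.4) and Tcrg-V3 (12.0 ± 1.31; SD, n = 3 each). The libraries of Tcrg-C2 and Tcrg-C4 overlapped there, as did those of Tcrg-C1 and Trgv2 and those of Trgv2 and Tcrg-V1, so these neighbours did not differ beyond their spread. In control libraries the order was Tcrg-C2 (901 ± 32.1), Tcrg-C1 (633 ± 27.8), Tcrg-C4 (593 ± 33.8), Trgv2 (468 ± 22.2), Tcrg-C3 (351 ± 17.1), Tcrg-V1 (257 ± 18.1) and Tcrg-V3 (14.6 ± 2.67). There Tcrg-C1 and Tcrg-C4 were the only neighbours whose libraries overlapped. Per kb of coding sequence, Tcrg-C4 thus stood above Tcrg-C1 in each Rag1Cre-Nfatc1fl/fl library (612 to 790 against 378 to 431 CPM per kb). In each control library it stood below (562 to 629 against 604 to 659). Before division by length, Tcrg-C4 had 121, 123 and 106 gene reads per 100 Tcrg-C1 reads in control libraries, so this order rests on the length used. Gene reads were counted over the whole gene, 8199 bases for Tcrg-C4 and 2922 for Tcrg-C1, and not over the coding sequence alone. Tcrg-C3 was divided by its full coding length, though nearly all its reads crossed a junction, as only 93 of its 471 start positions do. Its place in both orders also rests on the length used.

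Shares within the locus do not depend on the scaling between libraries. The V segment reads were in effect those of Tcrg-V1, Trgv2 and Tcrg-V3, since the V segments of the Tcrg-C1 cluster had no counted reads (below). The percentages may therefore not be shares of all γ V transcripts. Tcrg-V1 took 48.0%, 49.0% and 43.2% of the V segment reads in Rag1Cre-Nfatc1fl/fl libraries, against 35.4%, 36.3% and 31.9% in control libraries. The difference of the means was 12.2 percentage points, higher in 3 of 3 libraries, with an exact two-sided permutation p of 0.1, the smallest that 3 against 3 libraries allow. Trgv2 took the complement, at 51.6 ± 3.18% of V segment reads in Rag1Cre-Nfatc1fl/fl libraries and 63.5 ± 2.10% in control libraries (SD, n = 3 each). With the reads of Gm31887, the antisense gene described below, added to the V segment reads, an alternative chosen after seeing the data, the difference for Trgv2 shrank to -4.39 percentage points, while that for Tcrg-V1 was 11.1. Tcrg-V3 took 1.66 ± 0.0834% against 1.97 ± 0.312% (SD, n = 3 each), with an exact permutation p of 0.3.

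Among the constant regions, Tcrg-C4 took 40.4%, 42.4% and 35.3% of reads in Rag1Cre-Nfatc1fl/fl libraries, against 29.0%, 29.6% and 26.6% in control libraries, a difference of 11.0 percentage points. Tcrg-C1 took 18.2 ± 1.83% against 24.4 ± 0.587%, Tcrg-C2 31.5 ± 0.559% against 33.7 ± 0.521% and Tcrg-C3 10.9 ± 1.56% against 13.6 ± 0.645%, in each case Rag1Cre-Nfatc1fl/fl before control libraries (SD, n = 3 each). None of the 4 shares overlapped between groups, and each had an exact permutation p of 0.1. Adjusted over the 13 shares, ratios and sums tested, these p-values became 0.144. Shares add up to a fixed total, so they are not independent of each other. The 95% Wilson interval of a share in 1 library was at most 1.46 percentage points wide on either side for V segments, over 4471 to 6012 reads, and 0.645 for constant regions, over 21142 to 31106 reads, for counting error only. Rag1Cre-Nfatc1fl/fl library 3 was nearest to the control libraries for the shares of Tcrg-V1 and Tcrg-C4, and without it the differences were 14.0 and 13.0 percentage points.

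**Figure D4:**
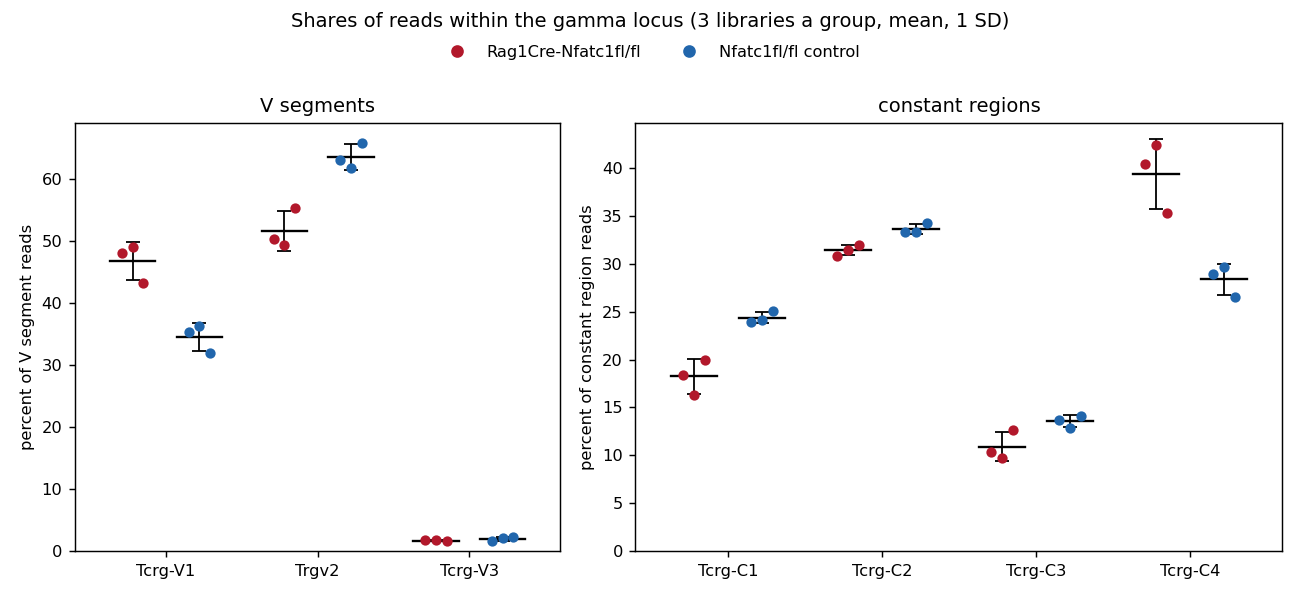
Percent of V segment reads (left panel) and of constant region reads (right panel) on each gene, with the 3 Rag1Cre-Nfatc1fl/fl libraries (red) left of the 3 Nfatc1fl/fl control libraries (blue) and the mean with 1 SD. The V segment reads are those of Tcrg-V1, Trgv2 and Tcrg-V3, as the V segments of the Tcrg-C1 cluster had no counted reads. Tcrg-V1 lies at 43.2% to 49.0% against 31.9% to 36.3%, and Tcrg-C4 at 35.3% to 42.4% against 26.6% to 29.6%.

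The V segment and the constant region of a cluster were then set against each other, since their transcripts are spliced together. Tcrg-V1 had 25.9, 26.3 and 25.9 reads per 100 Tcrg-C4 reads in Rag1Cre-Nfatc1fl/fl libraries, against 23.3, 23.7 and 23.1 in control libraries. The log2 ratio differed by 0.16 without overlap (exact permutation p = 0.1, the smallest possible). Trgv2 had 35.9 ± 0.526 reads per 100 Tcrg-C2 reads in Rag1Cre-Nfatc1fl/fl libraries and 36.2 ± 0.577 in control libraries (SD, n = 3 each), a gap smaller than the spread (exact permutation p = 0.6). Tcrg-V3 had 3.40 ± 0.699 reads per 100 Tcrg-C3 reads, against 2.80 ± 0.444 in control libraries (exact permutation p = 0.3), but on unique reads the log2 ratio turned, at -0.70 in place of 0.27.

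**Figure D5:**
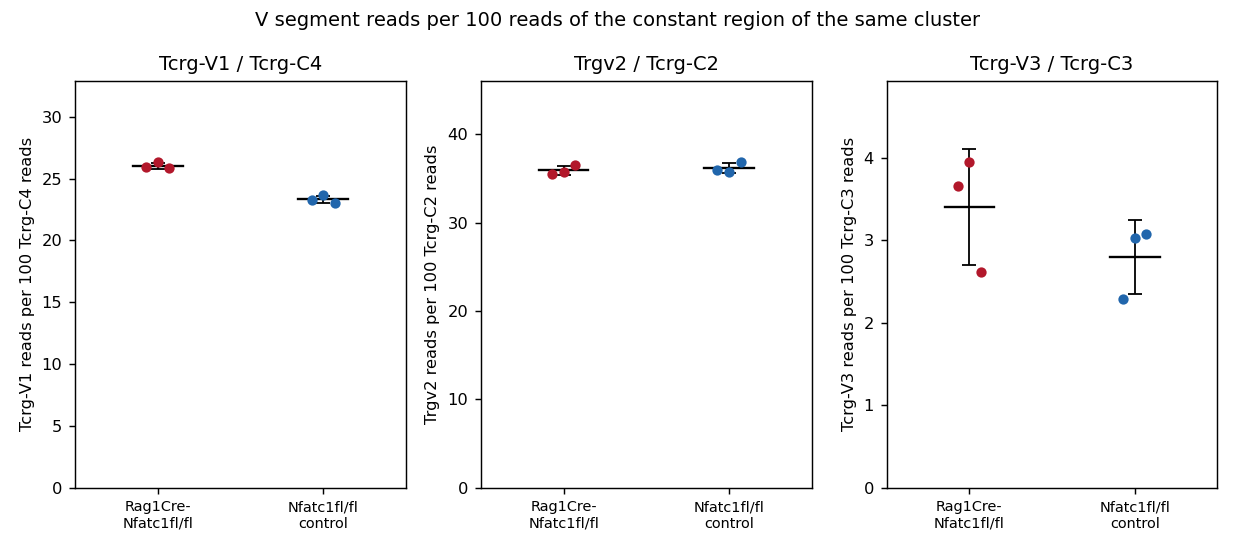
V segment reads per 100 reads of the constant region of the same cluster (y axes from 0) in 3 Rag1Cre-Nfatc1fl/fl libraries (left, red) and 3 Nfatc1fl/fl control libraries (right, blue), with the mean and 1 SD. The Tcrg-V1 to Tcrg-C4 values sit at 25.9 to 26.3 against 23.1 to 23.7, and the other 2 pairs overlap.

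The 7 genes together summed to 1378, 1472 and 1351 CPM in Rag1Cre-Nfatc1fl/fl libraries, against 1554, 1631 and 1625 CPM in control libraries. The groups did not overlap, and the means differed by -203 CPM (exact permutation p = 0.1). Most of this lay in the constant regions, at 1148 ± 44.1 against 1345 ± 34.5 CPM, while the V segments summed to 252 ± 19.2 against 258 ± 8.30 CPM, Rag1Cre-Nfatc1fl/fl before control libraries (SD, n = 3 each). In the same order, Tcrg-C1 had 209 against 328 CPM and Tcrg-C3 125 against 182 CPM. The V segments of the Tcrg-C1 cluster had no counted reads (below), and Tcrg-V3 had 4.2 against 5.1 CPM. The V sum therefore could not show a change to match these 2 constant regions. With library size as the only scaling the difference for the 7 genes together was -307 CPM. In bulk RNA, fewer cells with a transcript and less of it per cell cannot be told apart.

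The V segments of the Tcrg-C1 cluster had no counted reads. Tcrg-V7, Tcrg-V4, Tcrg-V6 and Tcrg-V5 were at 0 in all 6 libraries, where a count of 0 allows 3 reads, or 0.129 to 0.158 CPM for counting error only. All 4 lie inside Gm31887, an antisense gene annotated on the minus strand from 19162036 to 19193558, and the library kit does not mark the strand, so reads of these V segments and of Gm31887 cannot be told apart. The limit from a count of 0 therefore does not bound the level of these V segments. Gm31887, named after its values were seen, had 2106, 2099 and 1940 reads in Rag1Cre-Nfatc1fl/fl libraries, against 3067, 3034 and 3282 in control libraries (log2 fold change -0.48 ± 0.083, SE; edgeR adjusted p = 0.00557, short of the fold of the call). The log2 fold change was -0.23 on unique reads (edgeR adjusted p = 0.0762) and turned to 0.91 on exon reads (edgeR adjusted p = 0.062), which numbered 16 to 38 a library, so its direction depends on the reads counted. At least 98.2% of them were intron reads in each library, and 23.6% to 32.0% were unique. Per 100 Tcrg-C1 reads this was 47.0 ± 1.51 in Rag1Cre-Nfatc1fl/fl libraries and 41.8 ± 1.20 in control libraries (SD, n = 3 each). Of the J segments, Trgj3 had no reads, Trgj1 had 6 to 10 reads in Rag1Cre-Nfatc1fl/fl libraries against 13 to 30 in control libraries, and in the same order Trgj2 had 26 to 39 against 31 to 70 and Trgj4 7 to 15 against 3 to 16. Trgj1 and Trgj2 were tested and neither was called, and Trgj4 did not pass the filter.

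The partner chain and the machinery around the γ locus were read from lists. Of the 10 genes named Tcrd or Trd, 4 were tested and all 4 were called lower, with a median log2 fold change of -1.06. This list leaves out the V segments that the α and δ chains share, among which Trav15d-1-dv6d-1, named after its values were seen, was called higher (log2 fold change 2.47). The δ constant region Trdc had 127, 124 and 93.3 CPM in Rag1Cre-Nfatc1fl/fl libraries, against 193, 200 and 206 CPM in control libraries, a log2 fold change of -0.80 ± 0.12 (SE). The V segments Trdv2-2 (-1.19), Trdv1 (-1.11) and Trdv5 (-1.02) had larger log2 fold changes. None of the 6 genes of the receptor complex was called (median 0.26). Its most abundant members, the CD3 chains Cd3d and Cd3g, had 676 ± 158 and 618 ± 30.3 CPM in Rag1Cre-Nfatc1fl/fl libraries, against 458 ± 14.3 and 547 ± 26.7 CPM in control libraries (SD, n = 3 each).

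Of 14 genes for V(D)J recombination, 1 was called (list median -0.07): Lig4, the ligase that seals the joined ends, was lower, at 24.1 ± 1.51 against 53.1 ± 3.99 CPM in control libraries (SD, n = 3 each). Of a list of 20 genes for the interleukin 7 receptor, STAT5 and γ locus factors, 19 were tested; 3 were called higher and 6 lower, with a list median of -0.32. Il7r, the receptor chain through which interleukin 7 opens the γ locus, was higher, at 396 ± 72.6 against 200.2 ± 9.07 CPM in control libraries, and Il2rg, its signalling partner, at 547 ± 39.3 against 382 ± 14.9 CPM. Id2, an inhibitor of E proteins, was higher by a log2 fold change of 2.31 ± 0.10 (SE). The E protein gene Tcf3 (-0.57), Tcf7, which encodes the T lineage factor TCF-1 (-0.69), and Sox13, a factor of γδ cells that make interleukin 17 (-0.79), were lower on the log2 scale.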

How the data were processed

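RNA of 6 libraries of mouse γδ thymocytes was sequenced as single reads of 59 bases, trimmed by 10, and per the methods of the study aligned with STAR to GRCm38. The deposited gene tables hold whole-number counts of total, unique, exon, exon-exon and intron reads per gene; the methods name featureCounts, but the layout of the tables is not that program's, and the handling of reads with several places was not given in the sources at hand. Normalized columns of the tables were not used. Counts per gene were scaled with TMM and tested in edgeR 4.0.16 (quasi-likelihood, filterByExpr, genotype only, R 4.3.3), checked on simulated counts. DESeq2 1.42.0 and limma 3.58.1 gave alternatives. Shares, ratios and sums were tested with exact two-sided permutation tests in SciPy. No pair of replicate libraries was a duplicate by a chi-square test of counts.

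Coding sequences came from GENCODE vM1 by gene identifier and were aligned with Biopython; coordinates are those of the tables, since the genome at hand is of another build. All 7 members matched. Named genes were the 7 members, every other gene named in the γ locus, and of each list up to 6 called genes by adjusted p, or else the 2 most abundant. For likeness, each member was compared with tested genes of at least 5 CPM that are no receptor or immunoglobulin segment, over centred log2 CPM (offset 0.5). Some items under these rules are not reported here. The members and lists were chosen with earlier results of these data known.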

Additional observations from a re-analysis of the deposited data

How the results depend on the processing

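The shares of Tcrg-V1 and Tcrg-C4, the log2 ratio of Tcrg-V1 to Tcrg-C4 and the summed CPM kept their direction in every alternative run, and with 3 libraries against 3 no exact p can fall below 0.1. The share difference of Tcrg-V1 ranged from 11.1 to 12.5 percentage points and that of Tcrg-C4 from 10.1 to 11.3; the lowest values came from adding Gm31887 to the V segments and from counting per kb of coding length, both chosen after seeing the data. With Gm31887 added, the Trgv2 share difference was -4.39 points in place of -11.9, and that of Tcrg-V3 -0.0946 in place of -0.315, against -0.75 on unique reads. Leaving out each library in turn gave 10.9 to 14.0 and 9.48 to 13.0 points, 0.15 to 0.17 for the log2 ratio and -238 to -178 CPM for the sum. Without Tcrg-C3, also chosen after seeing the data, the sum differed by -145 CPM.

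The number of γ genes called stayed at 2 in 8 other fits of all 7 genes and was 5 at an adjusted p under 0.05 without a fold threshold; it ranged from 0 to 3 when a library was left out. Over all tested genes, 1316 were called, against 1992 in DESeq2, 814 and 760 in limma on log2(TPM + 1) and log2(TPM + 0.1), 3073 at an adjusted p under 0.05 without a fold threshold and 488 to 1796 when a library was left out. The log2 ratio of Tcrg-V3 to Tcrg-C3 turned to -0.70 on unique reads, and that of Trgv2 to Tcrg-C2 to 0.0033 without control library 3 (-0.0215 to 0.0033 when each library was left out). The cause of these changes was not tested.

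Exon, exon-exon and per kb of exon alternatives could not give a value for 6 of the 7 genes, which have no annotated exons, and TPM covered Tcrg-C3 alone. The labels do not say whether replicate numbers pair the libraries, and the main tests did not pair them. Same-numbered libraries correlated at 0.0632, 0.193 and 0.0605 in their deviations, each being its library's best, a hint from the data and not from the design. With the number as a replicate block, 1171 genes and 2 γ genes were called, and sign flips within numbers gave a p of 0.25, the smallest they can give, for the shares of Tcrg-V1 (12.2 points) and Tcrg-C4 (11.0 points), the ratio (0.16) and the sum (-203 CPM). Depth limits Tcrg-V3, with 133 reads or fewer a library.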

Other observations

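The genes whose course over the 6 libraries was closest to each member were found among 9800 tested genes by the root mean square difference of centred log2 CPM. For Tcrg-V1 they were Rin3 (0.04), Nucb1 (0.04) and Chst12 (0.04), while Tcrg-C4 stood at 0.08 from Tcrg-V1. For Tcrg-C4 they were Klhl18 (0.02), Nomo1 (0.03) and Kat2a (0.04). Trgv2 and Tcrg-C2 were closer to each other (0.02) than Trgv2 was to its nearest gene, Mapk1ip1 (0.03), which also led for Tcrg-C2 (0.01) and was followed in both by D16Ertd472e (0.03), with Nr2c1 (0.03) and Polg (0.03) as the last of the 3. Traf4 (0.02), Abcc5 (0.03) and Znrf1 (0.05) led for Tcrg-C1, Mospd1 (0.04) and Aldh7a1 (0.05) for Tcrg-C3, and Pias3 (0.05), Nnt_1 (0.07) and Poc1b (0.08) for Tcrg-V3. These are descriptions over 6 libraries that share their groups.

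The δ chain genes of the Trav15/Dv6 family, which encode Vδ6 chains, were looked at after their values were seen. Trav15d-1-dv6d-1 had 3016, 3762 and 2813 reads in Rag1Cre-Nfatc1fl/fl libraries, against 607, 756 and 526 in control libraries (log2 fold change 2.47 ± 0.15, SE, n = 3 each; edgeR adjusted p = 5.42e-05). Its unique share of reads was 6.93%, so the reads cannot be assigned to it alone. Trav15d-2-dv6d-2 (-0.76), Trav15-1-dv6-1 (-0.52) and Trav15-2-dv6-2 (-0.54) had negative log2 fold changes, of which the first was called. None of the reads of Trav15d-2-dv6d-2 was unique, so its fall cannot be assigned to it either.

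Set against the δ constant region, Tcrg-C4 had 3.98 ± 0.326 reads per Trdc read in Rag1Cre-Nfatc1fl/fl libraries and 1.91 ± 0.140 in control libraries (SD, n = 3 each). The 4 γ constant regions together had 10.2 ± 1.57 reads per Trdc read, against 6.73 ± 0.113 in control libraries, and neither ratio overlapped between groups. Trdc, the denominator, was itself called lower (log2 fold change -0.80), and 85.3% of its reads were unique. Tcrg-C4 was not called, and the 4 γ constant regions summed to fewer CPM than in control libraries. The higher ratios therefore do not by themselves show a gain of γ constant region reads.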
